A study of Homo sapiens with 8 samples.

Results

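Mediator is the large protein complex that links gene-specific transcription factors to RNA polymerase II, and YTHDF2 contacts were mapped here on the transcripts of 10 of its subunit genes: MED1, MED12, MED13, MED13L, MED14, MED15, MED23, MED24, MED25 and MED26. Each distinct YTHDF2 position (chromosome, nucleotide and strand) was counted in a subunit gene if it lay inside that gene's GRCh38 span and on its strand. This gave 80 of the 37613 distinct positions in the list. None of the 80 lay in another protein-coding gene as well, and no position lay on the opposite strand of these spans.

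YTHDF2 is a cytoplasmic reader of N6-methyladenosine (m6A), a modification of mRNA made by METTL3-METTL14, and it recruits mRNA decay factors. Its RNA contacts were mapped by iCLIP2, an ultraviolet crosslinking and immunoprecipitation method in which many cDNAs end next to the nucleotide that was crosslinked. HEK293T cells, a human embryonic kidney line, were used, with the genotype given as WT; 4 libraries came from cells given 20 µM STM2457, a METTL3 inhibitor, in 0.2% DMSO, and 4 from cells given 0.2% DMSO alone, each for 12 h. The study asked which binding of YTHDF2 depends on m6A, but the list analysed has 1 score per row and nothing per library, so the treatments were not compared, and depth and the spread between replicates are unknown.

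Mediator is described in modules. The head and middle contact the polymerase, MED14 is the scaffold that joins the modules, and the tail is the main landing place for transcription factors. A separable kinase module, made of CDK8 or CDK19, cyclin C, MED12 or MED12L and MED13 or MED13L, binds the core reversibly and blocks its contact with the polymerase.

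YTHDF2 positions in the 10 subunit genes were concentrated on 3 of them. MED13 had 25 positions, MED1 had 18 and MED13L had 16, together 59 of the 80 (73.8%). MED26 had 6, MED25 had 5, MED14 and MED24 had 3 each, MED15 and MED23 had 2 each, and MED12 had 0. Thus 9 of the 10 genes had a position, where 39.0% of 19932 protein-coding genes did. Of the 10, 3 had 10 or more, where 4.95% of protein-coding genes did. The 10 genes were chosen with earlier results of these data known, and each spans 20 kb or more. These shares therefore cannot show an enrichment. The median was 4 positions over the 10 genes and 5 over the 9 with a position, against 3 (quartiles 2 and 6) over all 7769 genes with a position. Each gene has 1 count without a replicate, so differences between genes were not tested, and the transcript levels behind the counts were not used here.

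**Figure D1:**
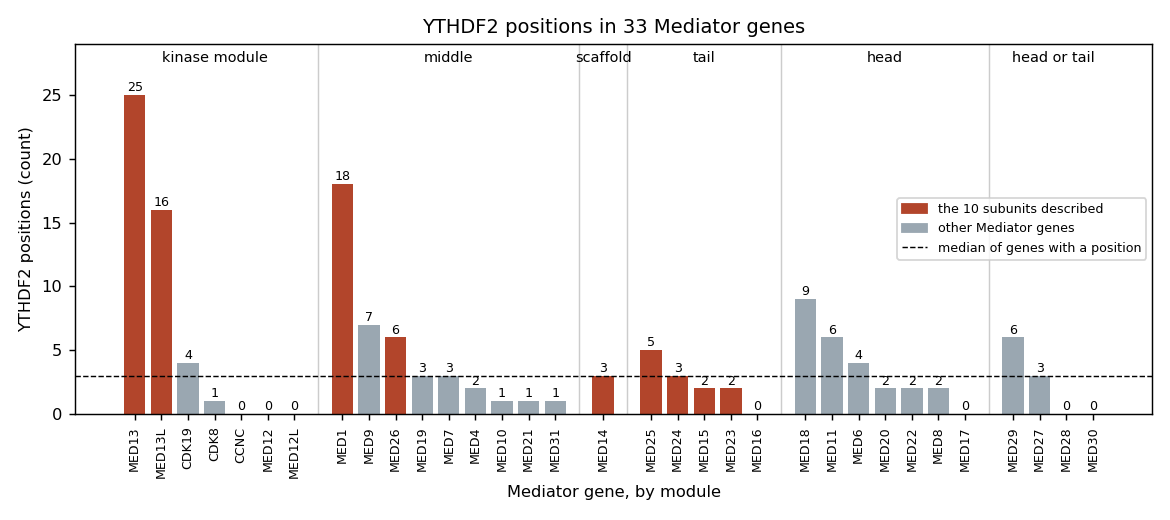
Number of distinct YTHDF2 positions (vertical axis) in each of 33 Mediator genes, arranged by module; red bars are the 10 subunits described and grey bars the other 23 Mediator genes. MED13, MED1 and MED13L stand at 25, 18 and 16, every other gene is at 9 or below, and the dashed line is the median of 3 over all genes with a position.

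The rank of the genes depended on whether length was taken into account. By count, 45 protein-coding genes had more positions than MED13, 145 had more than MED1 and 216 had more than MED13L. Per kb of genomic span, introns included, MED1 was densest at 0.383 positions, ahead of MED25 at 0.226, MED13 at 0.204 and MED26 at 0.113. MED13L, which spans 319 kb, had 0.0501 per kb, and MED24, MED23, MED14 and MED15 had 0.0850, 0.0368, 0.0341 and 0.0250. The median over the 9 genes was 0.0850 per kb, against 0.109 over all genes with a position. Exon boundaries were not used here, so density along mature mRNA is unknown.

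The kinase module held both the subunit gene with the most positions and one with none in the list. MED13 is the large subunit that tethers the kinase module to core Mediator. Its 25 positions lay on chromosome 17 between 61946279 and 62052677 (minus strand), over 106 kb of a gene spanning 123 kb. Joining neighbours up to 1000 nt apart gave 7 groups, which held, from 5′ to 3′, 2, 6, 1, 9, 2, 1 and 4 positions. Along the genomic span, introns included, the positions therefore lay in several short, separate stretches rather than in one. How far apart these stretches lie in the mature mRNA is unknown, as exon boundaries were not used.

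The largest MED13 group had 9 positions within 755 nt, from 61982311 to 61983065. From 5′ to 3′ their scores were 40.1, 0.644, 22.6, 2.53, 8.66, 4.69, 24.6, 1.34 and 34.8. The score is the authors' value per row, on a scale not given in the sources used here, and serves only to rank positions within the list, whose median is 8.67. High and low scores thus alternated within short distances, and the outermost positions of the stretch had the highest scores. The group of 6, upstream at 62010585 to 62011029, spanned 445 nt and held the gene's highest score, 75.1 at 62010980, which is at the 94.9th percentile of the list. The other 5 scores of that group ran from 1.69 to 19.9.

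The 5′-most MED13 group was a pair at 62052677 and 62052551 with scores of 44.1 and 1.83. Towards the 3′ end, the pair at 61965301 and 61965156 scored 4.94 and 50.4, and the 4 positions between 61946279 and 61946490 scored 28.5, 4.43, 0.0517 and 12.5 in 5′ to 3′ order. The score of 0.0517, at 61946289, was the lowest of all 80. Isolated positions lay at 61984819, with a score of 4.76, and at 61961031, with 1.45. In each group of more than 1 position, at least 1 score was above the list's median, while both isolated positions were below it. A group holds more scores than an isolated position and so has more chances of 1 above the median. A link of grouping with score was not tested.

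MED13L is the paralog of MED13 that can take its place in the kinase module. Its 16 positions lay on chromosome 12 between 115960817 and 116008898 (minus strand), all beyond 84.2% of the gene's span and within 50.3 kb of its 3′ end. They formed 4 groups of 3, 8, 1 and 4 positions from 5′ to 3′. The group of 8 covered 643 nt, from 115991137 to 115991779, with scores of 3.38, 8.52, 2.70, 7.76, 15.2, 3.77, 23.3 and 0.903 from 5′ to 3′. The upstream group of 3, at 116008598 to 116008898, scored 18.1, 14.1 and 12.2. All 3 were above the list's median, though the middle one, at 116008655, is also listed at 5.52, which is below it. The 3′ group of 4, at 115960817 to 115961087, scored 12.8, 31.2, 48.2 and 3.07, and held the gene's highest score at 115961040.

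Set side by side, the paralogs each had 1 large group and a last group of 4, and differed in the other groups. The large group held 9 positions within 755 nt in MED13 and 8 within 643 nt in MED13L, and the last group of 4 lay within 212 nt and 271 nt. The last group lay 3.68 to 3.89 kb from the annotated 3′ end in MED13 and 2.24 to 2.51 kb in MED13L, and the large group 39.7 to 40.5 kb and 32.6 to 33.2 kb. Upstream of the large group, MED13 had groups of 2, 6 and 1, the group of 6 at 44.2 to 44.6% of the span and the pair 110 kb from the gene's end, whereas MED13L had a single group of 3 at 84.2 to 84.3% of its span. Between the large and the last group, MED13 had a pair and a single position and MED13L a single one. The transcripts were not aligned, so whether the groups lie in matching exons was not tested. Genes with 8 or more positions within 1000 nt were 6.98% of those with a position, and MED13 and MED13L were both among them. Most genes with a position have too few to qualify, as their upper quartile is 6. The share is therefore no baseline for genes with as many positions as these paralogs.

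**Figure D2:**
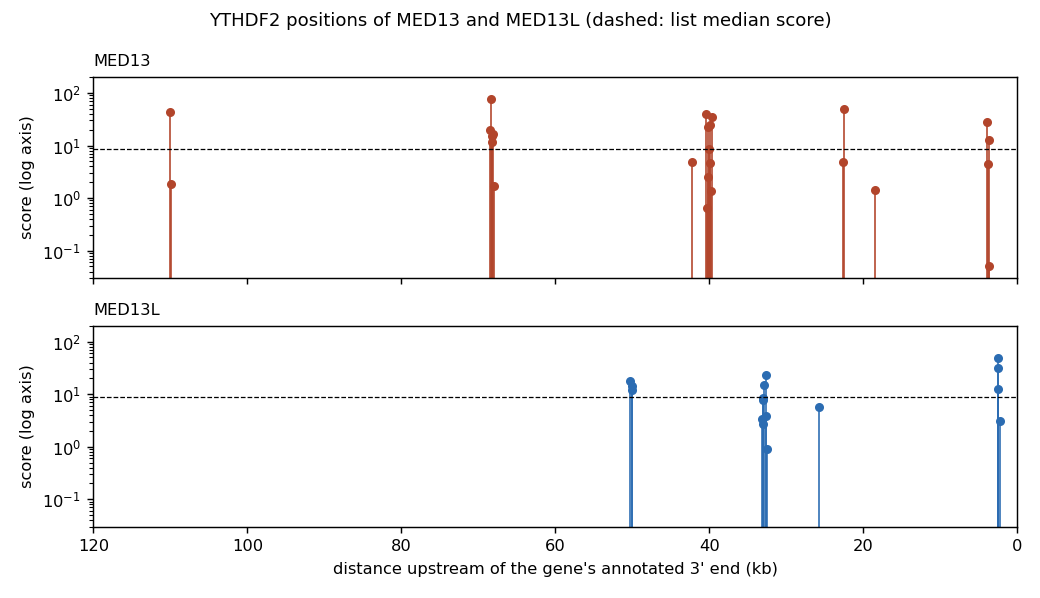
Scores of the YTHDF2 positions (vertical axis, log scale) against distance upstream of the annotated 3′ end in kb (horizontal axis), for MED13 above and MED13L below; each stem is 1 position and the dashed line is the list's median score of 8.67. The 25 MED13 positions form 7 groups out to 110 kb and the 16 MED13L positions form 4 groups within 50.3 kb, each gene ending in a group of 4.

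Neighbouring positions were often close in these paralogs and less often so in MED1, a difference that was not tested. In MED13, 12 of 25 positions had a neighbour within 50 nt, and the closest were 6 nt apart. In MED13L, 8 of 16 did, with the same closest distance of 6 nt. In MED1 it was 2 of 18, in MED25 2 of 5, and in MED26, MED14, MED15, MED23 and MED24 none. Over the 80 positions the share was 30.0% (exact binomial 95% interval 20.3 to 41.3, counting error only), close to the 29.7% of the whole list. Merging such neighbours left 19 positions in MED13, 11 in MED13L and 17 in MED1.

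MED12, the subunit that activates the CDK8 or CDK19 kinase together with cyclin C, had 0 positions on either strand. The nearest position on the X chromosome lay 57.7 kb from the gene's span. The list gives no depth, so no upper limit can be set for MED12, and the count says only that no position was listed. Of the other kinase module genes, MED12L and CCNC, which encodes cyclin C, also had 0. CDK19 had 4 positions within 81 nt, 110614384 to 110614464 on chromosome 6, with a highest score of 12.5. CDK8 had 1, at 26254646 on chromosome 13, only 0.518 kb from the gene's 5′ end, with a score of 25.3 and a lower one of 9.12 on another row. The module's 46 positions were therefore mostly those of MED13 and MED13L.

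MED1, the middle-module subunit through which many nuclear receptors contact Mediator, carried most of its positions in a long stretch near its 3′ end. Of its 18 positions on chromosome 17 (minus strand), 17 lay within 5.22 kb, from 39405222 to 39410440, of a gene spanning 47.0 kb. The remaining one, at 39434264, lay 23.8 kb further upstream and scored 2.65. Gaps between neighbours in the stretch ran from 10 to 1271 nt. Within it, 14 positions between 39407533 and 39410440 had a median spacing of 218 nt, against 90.5 nt in the large MED13 group and 60 nt in that of MED13L.

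The highest score of all 80 positions was in this stretch of MED1, 99.0 at 39408294, at the 96.7th percentile of the list. Further scores above 20 in MED1 were 36.4 at 39409666, 24.1 at 39410212 and 24.9 at 39407533, a position also listed at 3.16. The stretch also held the gene's lowest scores, 0.392 at 39410440 and 0.615 at 39410111. The 3 positions nearest the 3′ end, at 39406262, 39406086 and 39405222, scored 9.82, 3.39 and 8.39. Of the 18 scores 8 were at or above the list's median of 8.67. With the lower score of positions listed on 2 rows, 5 reached the same 8.67, while the list's own median was then 7.02.

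MED26, a middle-module subunit that recruits elongation factors to the polymerase, had all 6 of its positions in 865 nt on chromosome 19, from 16575764 to 16576628 (minus strand), although the gene spans 53.3 kb. From 5′ to 3′ they scored 45.4, 13.9, 1.51, 3.53, 19.0 and 0.542. The 5′-most position had the highest score and the 3′-most the lowest, with no steady fall in between. The stretch ended 0.846 kb from the gene's annotated 3′ end.

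MED14, the scaffold that runs through the complex, had 3 positions within 187 nt on the X chromosome, from 40651619 to 40651805 (minus strand), 3.32 to 3.50 kb from the 3′ end of an 87.9 kb gene. Their scores were 0.629, 11.6 and 2.70 from 5′ to 3′, so only the middle one was above the list's median.

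**Figure D3:**
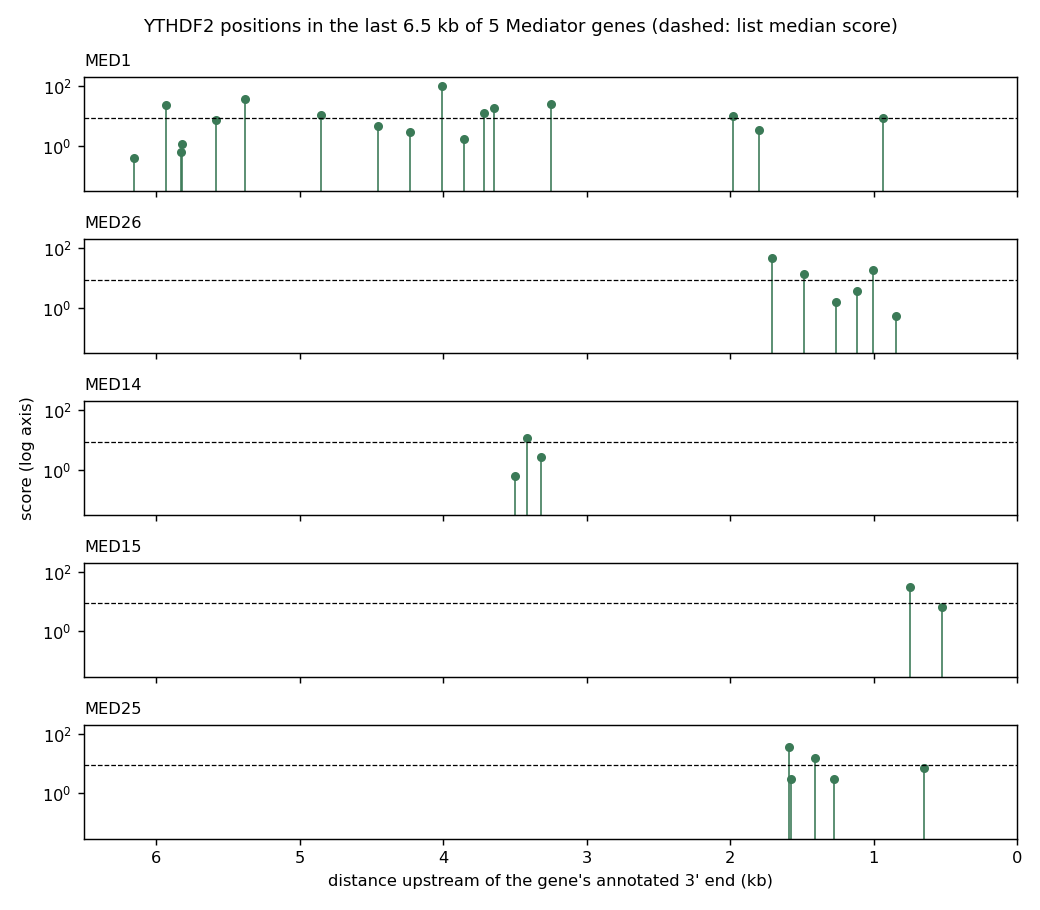
Scores of the YTHDF2 positions (vertical axis, log scale) in the last 6.5 kb of MED1, MED26, MED14, MED15 and MED25, against distance upstream of the annotated 3′ end in kb (horizontal axis); each stem is 1 position and the dashed line is the list's median score of 8.67. The 17 MED1 positions extend over 5.22 kb, whereas the 6 positions of MED26 and the 5 of MED25 each lie within 1 kb.

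The tail subunits described had 2 to 5 positions each, where the median over all genes with a position was 3, and their places in the gene differed. MED25, whose activator-binding domain is a target of several transcription factors, had 5 positions within 937 nt on chromosome 19, from 49838797 to 49839733 (plus strand). They scored 35.4, 3.08, 15.4, 2.92 and 7.15 from 5′ to 3′. MED15, a tail subunit bound by sterol-responsive and other activators, had 2 positions on chromosome 22, at 20586872 and 20587094 (plus strand), with scores of 31.9 and 6.58, both in the last 1 kb of an 80.0 kb gene.

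MED24, which helps to hold MED23 in the tail, had 3 positions on chromosome 17 (minus strand) that were far apart. From 5′ to 3′ they were 40033422 with a score of 2.25, 40023243 with 5.54 and 40019584 with 26.9, the last 0.481 kb from the gene's 3′ end. MED23, a target of growth factor signalling to transcription, had 2 on chromosome 6 (minus strand), 131628043 with a score of 2.47 and 131587627 with 13.3. The former was 0.271 kb from the gene's 5′ end and was the only one of the 80 positions in the first 1 kb of a gene. In MED24 and MED23 no position had another within 1000 nt.

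**Figure D4:**
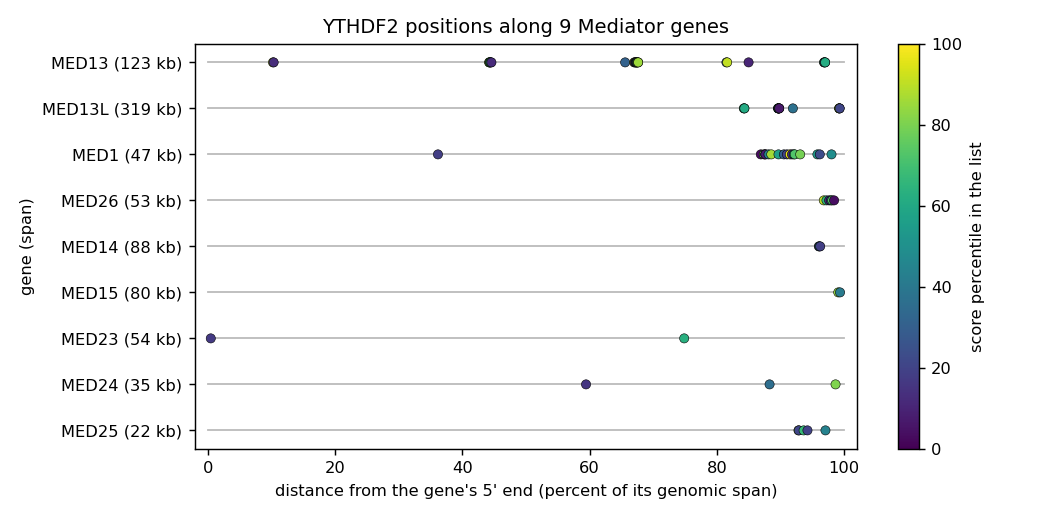
Place of each YTHDF2 position as a percent of the gene's genomic span from its 5′ end (horizontal axis) in the 9 subunit genes with a position; colour is the percentile of the score in the whole list. All positions of MED26, MED14, MED15 and MED25 lie at 92.8% of the span or beyond, MED13 is contacted from 10.3% onwards, and MED23 has 1 position at 0.499%.

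The share of the 80 positions near the 3′ ends of the genes was close to that of other genes of like span. Within the last 5 kb were 37 of 80 (46.2%, exact binomial 95% interval 35.0 to 57.8), against 44.0% in all genes spanning 20 kb or more, as each of the 10 does. Within the last 1 kb were 6 (7.50%, interval 2.80 to 15.6), against 11.1% in genes of that span and 16.9% in all genes. Both intervals hold the value of genes of like span, so the share near the 3′ end was not distinguishable from theirs at this number of positions. The 1 kb interval lay below the 16.9% of all genes. That was the comparison planned beforehand, and it includes genes spanning less than 20 kb. Of the 9 genes, 5 had at least 1 position in the last 1 kb, namely MED1, MED15, MED24, MED25 and MED26, against 28.3% of genes spanning 20 kb or more with a position. A gene with more positions has more chances of 1 there. The 9 genes had a median of 5 positions, against 3 over all genes with a position. The 28.3% is therefore no baseline for genes with as many positions as these. The intervals given for the shares of positions treat positions as independent, which neighbours in a gene are not.

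Grouping was common to the 5 genes with the most positions. Of the 80 positions, 65 lay in 11 groups of 3 or more, and 9 of the 23 groups were single positions. The share of the whole list in such groups was not computed, so whether 65 of 80 is unusual is unknown. MED13, MED13L, MED1, MED26 and MED25 each had at least 5 positions within 1000 nt, with 9, 8, 6, 6 and 5. Among all genes with 5 or more positions, 66.3% had such a stretch, so this was the usual state of genes with that many.

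The median score of the Mediator positions was close to that of the list. Their median was 8.46 with quartiles of 2.81 and 19.2, against 8.67, 3.75 and 20.8 for the whole list. At or above the list's median were 38 of 80 (47.5%, interval 36.2 to 59.0), 19 (23.8%, interval 14.9 to 34.6) reached the list's upper quartile, and 27 (33.8%, interval 23.6 to 45.2) were at or under its lower quartile, against 9404 of 37613 in the list. With the lower score of positions on 2 rows, 31 of the 80 were at or above the same 8.67. The list's own median was then also lower, at 7.02, against 6.19 for the 80 positions. The gene medians ran from 2.70 in MED14 to 19.3 in MED15, which has only 2 positions, and were 11.6 in MED13, 10.4 in MED13L and 7.80 in MED1. With the lower scores they were 4.44 in MED15, 8.14 in MED13L and 4.63 in MED1, and unchanged in MED13 and MED14. In MED1 and MED13 scores had a wider range than the gene medians. In MED1 they ran from 0.392 to 99.0 and in MED13 from 0.0517 to 75.1.

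**Figure D5:**
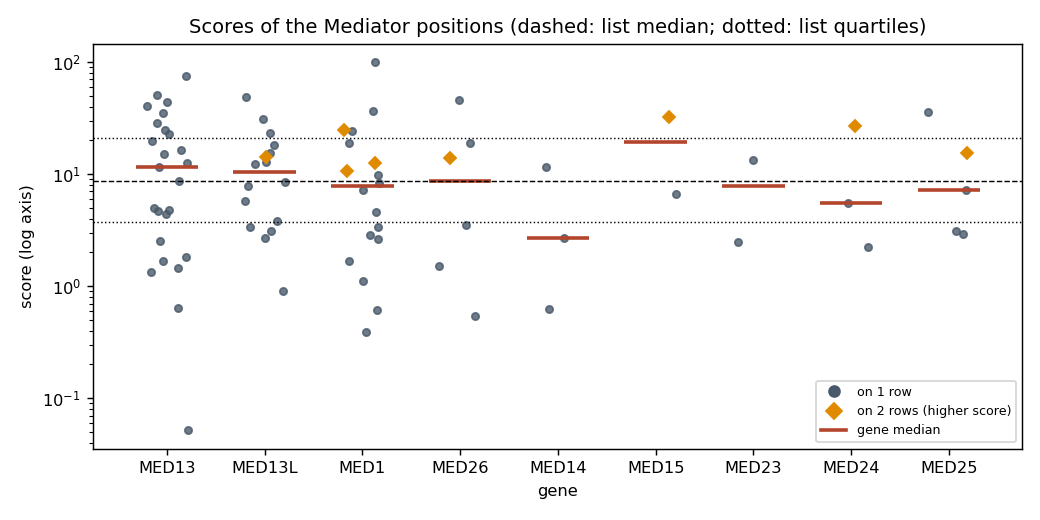
Scores of the 80 positions (vertical axis, log scale) by gene; circles are positions given on 1 row of the list, diamonds positions on 2 rows at their higher score, red bars gene medians, the dashed line the list's median and dotted lines its quartiles. Points are spread sideways for visibility; the gene medians from 2.70 to 19.3 lie within the range of scores inside MED13 or MED1 alone.

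Some positions are listed on 2 rows with different scores, and the higher was used above. This was so for 8 of the 80 (10.0%, interval 4.42 to 18.8), against 14.8% of the list. They were 3 in MED1 and 1 each in MED13L, MED15, MED24, MED25 and MED26, with none among the 25 of MED13. The higher score was 1.60 to 13.9 times the lower. At 20586872 in MED15 the scores were 31.9 and 2.30, and at 40019584 in MED24 they were 26.9 and 16.9, so the rank of the MED15 position, and the place of MED15 at the top of the gene medians, rest on the row used.

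Rows were deposited as successive runs over the chromosomes, which make up a shorter part of 8935 and a longer part of 34243 rows. The parts carry no label and are assigned to no treatment here. Positions found in the shorter part alone were 9 of 80 (11.2%, interval 5.28 to 20.3), against 8.96% of the list. They were 3 each in MED1 and MED13L and 1 each in MED13, MED14 and MED23. The 1 in MED23 was its position near the 5′ end, at 131628043. In the longer part MED13 thus had 24 positions, MED1 15 and MED13L 13, and MED23 a single one.

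The remaining Mediator genes had at most 9 positions each. Of these 23, 17 had a position, 57 in all, with a median of 3 in the genes with a position. In the head were MED18 with 9, MED11 with 6, MED6 with 4, and MED8, MED20 and MED22 with 2 each, while MED17 had 0. In the middle were MED9 with 7, MED7 and MED19 with 3, MED4 with 2 and MED10, MED21 and MED31 with 1 each. Among the subunits placed in the head or the tail by different structural models, MED29 had 6, MED27 had 3 and MED28 and MED30 had 0, and the tail subunit MED16 had 0.

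With the higher score of each position, the highest Mediator scores lay in 2 genes outside the 10 described. MED11, a head subunit gene of only 2.18 kb, had its 6 positions within 344 nt at the end of the gene, with a maximum of 149 at 4733310 on chromosome 17 and 2.75 positions per kb. The single MED21 position, at 27028493 on chromosome 12, scored 115. Both exceed the maximum of 99.0 among the 80, but the MED11 position is on 2 rows, and with the lower score the MED11 maximum was 66.1. The median density was 0.204 per kb in the 17 other Mediator genes with a position, against 0.0850 in the 9 described, whose genes are longer.

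Other genes of the transcription machinery gave a frame for these counts. RNA polymerase II subunit genes had a position in 9 of 12 cases, with a median of 3 in those, led by POLR2D with 10, POLR2A, the catalytic subunit, with 7 and POLR2H with 4. Subunits of TFIID, the factor that recognises core promoters, had one in 11 of 14, with a median of 3, led by TAF7 with 10, TAF8 with 7 and TAF2 with 6. Partners of Mediator in elongation and enhancer function had one in 10 of 12, with a median of 13. These were led by ICE1, a scaffold of the little elongation complex, with 25, the cohesin loader NIPBL with 17 and the super elongation complex scaffold AFF4 with 16. By count, MED13, MED1 and MED13L, at 16 to 25, exceeded the maximum of 10 in the polymerase and TFIID lists, while the partner genes ran from 0 to 25. The other 7 subunit genes, at 0 to 6, were within the range of all 3 lists. Per kb of genomic span, several genes were denser than MED1 at 0.383, in each of the 3 lists. TAF7 at 4.36 and POLR2D at 0.685 were among them. The median density in genes with a position was 0.341 for the polymerase, 0.0588 for TFIID and 0.191 for the partners, against 0.0850 for the subunits described.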

How the data were processed

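The 8 iCLIP2 libraries are represented by 1 deposited list of positions of 1 nt with a score of unstated scale. Per the submitters' processing notes, the build was GRCh38.p12 and the tools included STAR 2.7.3a, FastQC 0.11.8, bedtools 2.27.1 and UMI-tools 1.0.0, listed without roles. How sites were called, scores scaled and replicates combined was not given in the sources used here. A filter of the authors on crosslinks or gene type would shape every count. The 43178 rows were joined by chromosome, position (from 1) and strand, keeping the higher deposited score.

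Gene spans came from a RefSeq table on GRCh38.p14, without readthrough genes. Strand came from the RefSeq promoter table or, for MED13, MED14 and others not matched there, from the majority of positions; both agreed in 99.9% of 6201 genes. Positions in overlapping genes count in each. No genome sequence or exon annotation was used here, so the planned motif search was not made. The subunits and gene lists were chosen with earlier results of these data known. All 10 subunits are named, with every other Mediator gene and the 3 genes with the most positions of each comparison list. The joining distance of 1000 nt, the 20 kb span limit and the 5 kb window were chosen after seeing the data. No test was made, as there are no values per sample. Counting steps were tested on simulated data. Alternatives were merging, higher scores, overlap, list part, row choice and window sizes. Python 3.11.15, pandas 2.3.3 and scipy 1.17.1 were used.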

Additional observations from a re-analysis of the deposited data

How the results depend on the processing

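The 80 positions became 67 after merging neighbours within 50 nt, 71 in the longer part of the list and 38 with scores at or above the list's median, and stayed at 80 without positions in other protein-coding genes. The median per gene of 4 fell to 1.5 with those higher scores. The share in the last 1000 nt, 7.50%, was 1.25% for 500 nt and 21.2% for 2000 nt, as the window sets it. In all genes the shares were 16.9% for 1000 nt, 8.53% for 500 nt and 30.5% for 2000 nt. The share with a neighbour within 50 nt, 30.0%, was 15.0% at 20 nt and 46.2% at 100 nt. The densest 10 kb of MED1 held 94.4% of its positions, and the densest 2000 nt 50.0%; the densest stretch of MED13, MED13L, MED25 and MED26 moved less than its counting interval. The median score of 8.46 was 6.19 with the lower of 2 scores and 9.82 in the longer part. The whole list's median was 8.67, and 7.02 with the lower of 2 scores. With the lower scores, an alternative added after seeing the data, 31 positions in place of 38 reached 8.67. Joining distances of 500 and 2000 nt, also added then, gave 26 and 21 groups in place of 23. No paired analysis was possible because the list has no column per library, and for the same reason no replicate could be left out. Without depth, genes with 0 positions cannot be given a limit.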
